A study of Mus musculus with 9 samples.

Results

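Creb3l1, Col11a1, Loxl2, Spon2 and Sema3c are the 5 genes for the collagenous matrix and for secreted matrix or signalling factors described here, out of 98 genes in the deposited table of maxillary alveolar bone. They were found in the table by gene name. The table itself holds only genes that the authors selected for a difference between Allograft and Spon. Healing, so the difference between these groups chose the members and is given below as a description without a test. Genes that lie just outside the selection were not analysed here.

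The bone came from male C57BL/6 mice of 8 weeks whose maxillary first molar was extracted, and all mice were sacrificed 2 weeks after the procedure. In Spon. Healing (4 libraries) the socket healed without a graft. In Allograft (5 libraries) the socket received allograft with saline, and the sample labels do not say whether saline was given once or repeatedly. The graft consisted of washed, lyophilized and ultraviolet-irradiated particles of femurs and tibias of C57BL/6 mice, which is the strain of the hosts. Each library is labelled as a separate sample, while the study's methods speak of 3 biological replicates, so the number of mice behind the 4 and 5 libraries is uncertain, and n below counts libraries. Maxillae were pulverized, and in such bulk RNA fewer cells of a type and less RNA per cell cannot be told apart. None of the 67 markers in 11 cell type lists, osteoblast, osteocyte, osteoclast, chondrocyte and fibroblast markers among them, is in the table, so the labelled tissue could not be checked against its defining genes.

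Creb3l1, also called OASIS, is a transcription factor that is held in the membrane of the endoplasmic reticulum (ER). When it moves to the Golgi it is cut by proteases, and its freed part enters the nucleus, where in mouse osteoblasts it activates the gene for type I collagen. Collagens are folded in the ER, leave it in coated vesicles and are joined into fibrils outside the cell, where lysyl oxidases crosslink them. Spondins are matrix proteins, and class 3 semaphorins are secreted guidance signals that bind neuropilin and plexin receptors.

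All 5 genes are protein coding and are placed on GRCm38. Creb3l1 (ENSMUSG00000027230) is on the minus strand (chromosome 2, 91982328 to 92024502). Col11a1 (ENSMUSG00000027966) is on the plus strand (chromosome 3, 114030540 to 114220718), and its longest coding transcript has 67 exons. Loxl2 (ENSMUSG00000034205) is also on the plus strand (chromosome 14, 69609068 to 69695834). Its exons share 2245 nt with the antisense gene Gm27177 on the opposite strand, and the authors counted reads by strand. Spon2 (ENSMUSG00000037379) and Sema3c (ENSMUSG00000028780) both lie on chromosome 5, the first on the minus strand from 33198184 to 33218455 and the second on the plus strand from 17574281 to 17730268.

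RefSeq promoter windows of GRCm38.p6 (250 bases before to 50 after the annotated start) were at hand for 2 of the 5 genes, Col11a1 and Sema3c. They were searched on both strands for TGACG, the core of the cAMP response element recognised by CREB and ATF proteins, and for CCACG and CCAAT, the ends of the ER stress response element. Among all 32851 windows TGACG was present in 20.8%, CCACG in 32.8% and CCAAT in 37.4%. Neither gene's window held TGACG. The Col11a1 window held 1 CCAAT match, on the minus strand, and the Sema3c window held 2 CCACG matches. The upstream 189 bases of the Col11a1 window (chr3:114030290-114030478) and 30 bases around the CCACG match of Sema3c nearest to its RefSeq start (chr5:17574759-17574788, inside the first Ensembl exon) are printed to show these matches, in capitals on the plus strand, where both appear as the reverse complement. A match is a description of the letters only.
Col11a1: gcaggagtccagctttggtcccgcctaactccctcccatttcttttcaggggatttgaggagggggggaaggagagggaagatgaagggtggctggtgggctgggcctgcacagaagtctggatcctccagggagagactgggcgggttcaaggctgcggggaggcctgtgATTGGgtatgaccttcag
Sema3c: cggggttgagcgaCGTGGagaagggctccg

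The values below are normalized counts, obtained by dividing the raw read counts of a library by its size factor. Size factors spanned 0.577 to 1.44 in the Spon. Healing libraries, and those of Allograft spanned 0.653 to 2.20. The 98 listed genes together held 60516 to 443678 raw counts per library, and these sums are not library depths, which are unknown here. Libraries were made by CEL-Seq2, a method that reads the 3′ ends of polyadenylated RNA, so a count does not grow with transcript length and no value per length was formed. Levels of different genes are therefore given side by side as counts of 3′ ends, not as a ranking of transcript numbers.

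All 5 genes had higher mean normalized counts in Allograft, with a distance from Spon. Healing of 1.42-fold for Col11a1, 1.49-fold for Creb3l1, 1.62-fold for Loxl2, 2.13-fold for Sema3c and 5.15-fold for Spon2. The median over the 5 genes was 1.62-fold, and it was 1.46-fold over all 65 listed genes with a higher mean in Allograft. In 4 of the 5 genes each Allograft library lay above every Spon. Healing library, and the same held for 53.1% of the 98 listed genes. In a further 21.4% of listed genes the groups lay apart in the other direction, and 66.3% had a higher mean in Allograft. As the table was selected on this contrast, nothing is read from these shares.

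Creb3l1 had 817, 1431, 1420 and 1272 normalized counts in Spon. Healing replicates 1 to 4. In Allograft replicates 1 to 5 it had 2205, 1895, 1646, 1459 and 1992. Spon. Healing replicate 1 stood well below the other libraries, and the groups did not overlap, although Allograft replicate 4 lay only just above Spon. Healing replicate 2. The means were 1235 ± 288 (SD, n = 4) and 1839 ± 292 (SD, n = 5), a difference of 0.59 between mean log2(normalized count + 1) values (standard error 0.22).

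Col11a1 encodes a chain of type XI collagen, which forms the core of cartilage collagen fibrils and limits their diameter. It had 7399, 7046, 4867 and 6653 normalized counts in Spon. Healing replicates 1 to 4. The Allograft replicates 1 to 5 had 9749, 7575, 10771, 9887 and 8055. The lowest value was that of Spon. Healing replicate 3, and Allograft replicate 2 lay just above Spon. Healing replicate 1. The means were 6491 ± 1125 (SD, n = 4) and 9207 ± 1341 (SD, n = 5), a difference of 0.51 on the same log2 scale (standard error 0.17).

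Loxl2 encodes a secreted lysyl oxidase that crosslinks collagen. Its normalized counts were 2580, 1762, 1652 and 1783 in Spon. Healing replicates 1 to 4. Allograft replicates 1 to 5 had 3769, 2294, 3392, 3701 and 2611. Loxl2 was the member whose groups overlapped, since Spon. Healing replicate 1 lay above Allograft replicate 2, while the other Spon. Healing libraries lay close together below all of Allograft. The means were 1944 ± 428 (SD, n = 4) and 3153 ± 665 (SD, n = 5), with a log2 difference of 0.69 (standard error 0.20).

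Spon2 encodes mindin, a secreted spondin of the extracellular matrix that binds integrins. Its raw counts were 4, 11, 12 and 5 in Spon. Healing and 53, 28, 91, 97 and 27 in Allograft. These correspond to 4.83, 7.64, 18.3 and 8.67 normalized counts in Spon. Healing and to 81.1, 31.9, 74.2, 44.04 and 22.9 in Allograft. The groups did not overlap, but Spon. Healing replicate 3 came close to Allograft replicate 5. The means were 9.87 ± 5.87 (SD, n = 4) and 50.8 ± 25.7 (SD, n = 5), with a log2 difference of 2.24 (standard error 0.50). The whole Spon. Healing level of Spon2 thus rests on 32 reads in 4 libraries.

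Sema3c encodes a class 3 semaphorin. It had 72.5, 81.3, 45.8 and 34.7 normalized counts in Spon. Healing replicates 1 to 4, and 129, 124, 144, 138 and 90.1 in Allograft replicates 1 to 5. Spon. Healing was split between a higher pair, replicates 1 and 2, and a lower pair, and in Allograft replicate 5 lay below the rest. The means were 58.6 ± 21.9 (SD, n = 4) and 125 ± 20.8 (SD, n = 5), with a log2 difference of 1.14 (standard error 0.31).

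**Figure D1:**
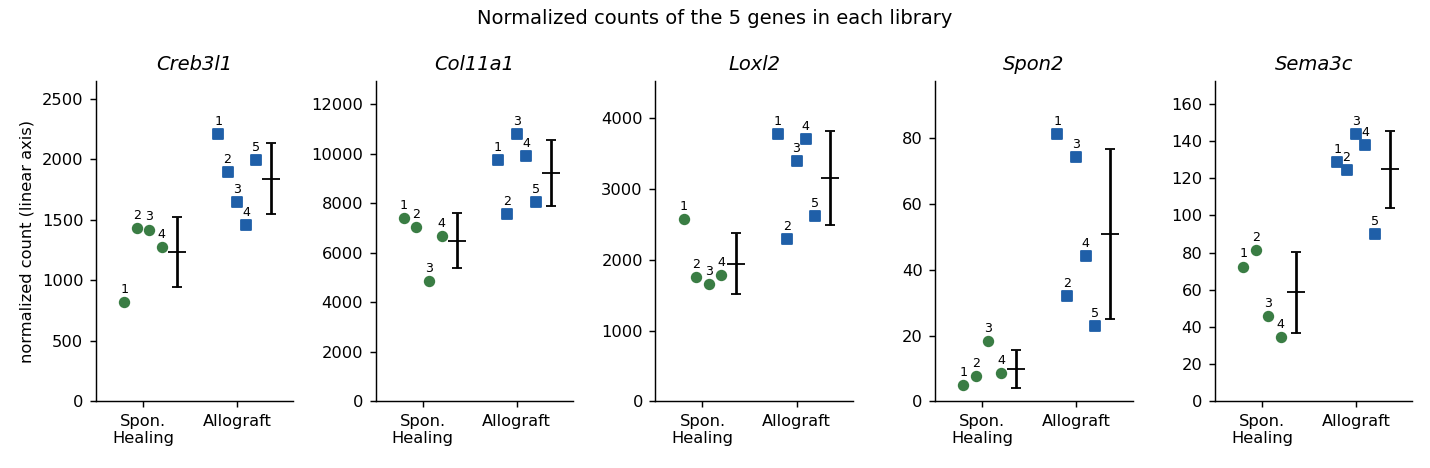
Normalized counts (linear axes from 0) of the 5 genes in each library. Circles are the 4 Spon. Healing libraries, squares the 5 Allograft libraries, numbers the replicates, and the bar beside each group is its mean ± SD. The groups overlap in Loxl2 only, through Spon. Healing replicate 1 (2580) and Allograft replicate 2 (2294).

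When factors were computed over the listed genes by edgeR's TMM in place of the authors' size factors, the median log2 ratio of all listed genes shifted by -0.32. Such factors lower the ratios by construction, since the listed genes are mostly higher in Allograft, and they do not test the authors' scaling. The log2 ratio of means of Creb3l1 was then 0.26 instead of 0.57 and that of Col11a1 0.20 instead of 0.50, and none of the 5 genes kept groups without overlap. Loxl2 (0.39), Sema3c (0.79) and Spon2 (2.05) also kept a higher mean in Allograft.

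The 5 genes covered a wide range of abundance. Over all 9 libraries the mean normalized count was 8000 for Col11a1, the 4th highest of the 98 listed genes, 2616 for Loxl2 (6th), 1571 for Creb3l1 (13th), 95.4 for Sema3c (77th) and 32.6 for Spon2 (91st). The highest and lowest of these means were 245-fold apart. The distance between Col11a1 and Spon2 counts was 658-fold in Spon. Healing and 181-fold in Allograft.

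The observed spread between libraries was larger than counting error in all 5 genes and both groups, an excess that was not tested. In Spon. Healing the coefficient of variation (CV, SD divided by the mean) was 17.3% for Col11a1, where counting alone would give 1.41%. It was 22.0% against 2.58% for Loxl2 and 23.3% against 3.23% for Creb3l1. Sema3c had a CV of 37.4% against 14.8% from counting, and Spon2 had 59.5% against 36.2%, from a total of 32 reads. In Allograft the CV was 14.6% for Col11a1, 21.1% for Loxl2 and 15.9% for Creb3l1, where counting alone would give 1.02%, 1.74% and 2.28%. It was 16.7% against 8.76% for Sema3c and 50.6% against 13.7% for Spon2. The spread of Sema3c was thus smaller in Allograft than in Spon. Healing, a difference in spread that was not tested. Counting error here is Poisson error only.

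**Figure D2:**
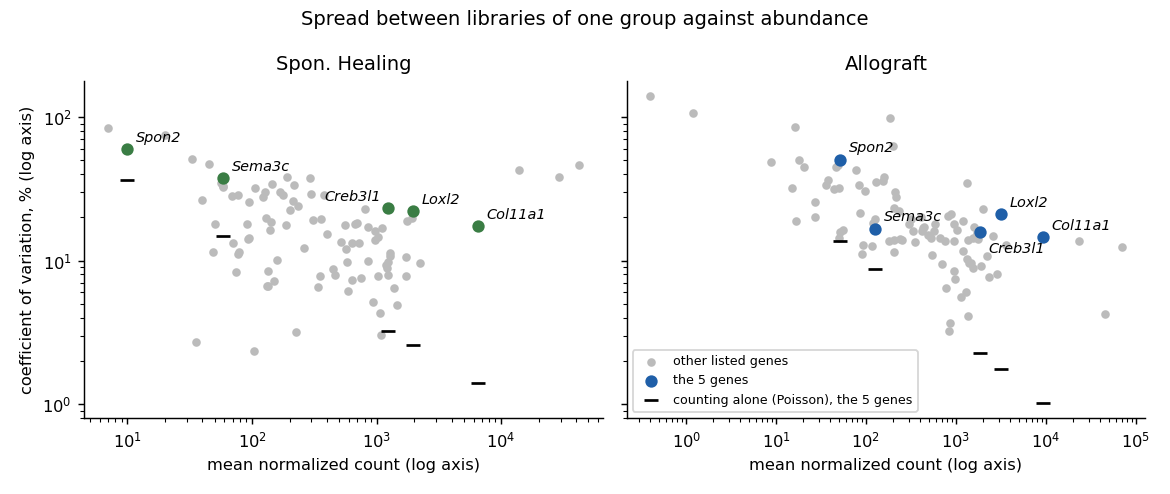
Coefficient of variation between libraries (%, log axis) against mean normalized count (log axis) for the listed genes in Spon. Healing and Allograft. Filled points are the 5 genes, grey points the other listed genes with a mean above 0, and dashes the variation that counting alone gives. Col11a1 (17.3% in Spon. Healing) lies far above its dash (1.41%), and Spon2 lies at 59.5% over 36.2% in Spon. Healing and at 50.6% over 13.7% in Allograft.

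Whether the matrix and secreted-factor genes follow Creb3l1 from library to library was first examined as raw counts per 100 Creb3l1 counts, a ratio inside each library that needs no size factor. Relative to Creb3l1 the groups overlapped in all 4 genes, and the ratios of Col11a1 and Loxl2 had similar means in both groups. For Loxl2 this depended on Spon. Healing replicate 1, without which the log2 ratio of means was 0.48. No test was made, since both counts of each ratio belong to genes selected on the group difference.

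Col11a1 had 906, 492, 343 and 523 counts per 100 Creb3l1 counts in Spon. Healing and 442, 400, 654, 678 and 404 in Allograft. The Allograft libraries lay inside the Spon. Healing range, which is widened at its upper end by replicate 1, the library with the lowest Creb3l1. The group means were 566 ± 240 (SD, n = 4) and 516 ± 138 (SD, n = 5), a log2 ratio of -0.13 that became 0.19 without Spon. Healing replicate 1.

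Loxl2 had 316, 123, 116 and 140 counts per 100 Creb3l1 counts in Spon. Healing and 171, 121, 206, 254 and 131 in Allograft. Spon. Healing replicate 1 again was the highest of all libraries. The means were 174 ± 95.2 (SD, n = 4) and 177 ± 54.8 (SD, n = 5), a log2 ratio of 0.02 that became 0.48 without Spon. Healing replicate 1 and ran from -0.14 to 0.13 when any other library was left out.

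Spon2 had 0.592, 0.534, 1.29 and 0.681 counts per 100 Creb3l1 counts in Spon. Healing and 3.68, 1.68, 4.51, 3.02 and 1.15 in Allograft. Only Allograft replicate 5 reached the Spon. Healing range, and the means, 0.775 ± 0.350 (SD, n = 4) and 2.81 ± 1.39 (SD, n = 5), were 3.62-fold apart. Sema3c had 8.88, 5.68, 3.23 and 2.72 in Spon. Healing and 5.83, 6.55, 8.72, 9.43 and 4.52 in Allograft. Its groups overlapped widely, with means of 5.13 ± 2.81 (SD, n = 4) and 7.01 ± 2.03 (SD, n = 5), and its log2 ratio of 0.45 was 0.85 without Spon. Healing replicate 1, 0.28 without Spon. Healing replicate 3 and 0.24 without Spon. Healing replicate 4.

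**Figure D3:**
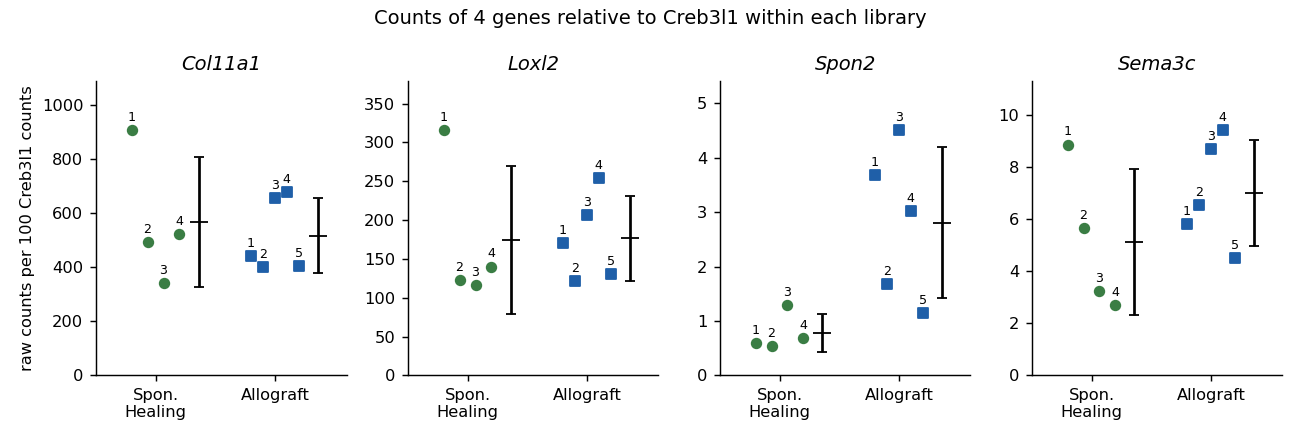
Raw counts of Col11a1, Loxl2, Spon2 and Sema3c per 100 Creb3l1 counts of the same library (linear axes from 0). Circles are Spon. Healing and squares Allograft libraries, numbered by replicate, with mean ± SD at the side. The groups overlap in all 4 panels, and Spon. Healing replicate 1 is the highest library for Col11a1 (906) and Loxl2 (316).

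The second view took out the group difference. For each gene the deviation of log2(normalized count + 1) from its group mean was formed in the 9 libraries, and these deviations were correlated with those of Creb3l1, because the groups alone hold fewer than 6 libraries. P-values are two-sided and come from an exact permutation test that exchanged the Creb3l1 deviations within each group over all 2880 orders.

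No relation with Creb3l1 passed an adjusted p of 0.05 among the 4 tested, and for 3 of the 4 genes the correlation was negative. Pearson's r was -0.50 for Col11a1 (exact permutation p = 0.241), -0.62 for Loxl2 (p = 0.0927), 0.37 for Spon2 (p = 0.345) and -0.35 for Sema3c (p = 0.566). Adjusted over the 4 relations, these exact permutation p-values ran from 0.371 for Loxl2 to 0.566 for Sema3c, and over all 95 other listed genes that averaged 10 or more raw counts they ran from 0.474 to 0.815. Spearman's rho was -0.40 for Col11a1, -0.30 for Loxl2, 0.38 for Spon2 and -0.22 for Sema3c, with exact permutation p-values of 0.328, 0.466, 0.349 and 0.659.

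Spon. Healing replicate 1 and Allograft replicate 4 had the Creb3l1 deviations farthest from the median, -0.56 and -0.32 on the log2 scale. Without these 2 libraries r was -0.29 for Col11a1, 0.09 for Loxl2, 0.01 for Spon2 and 0.10 for Sema3c. Without Spon. Healing replicate 1 alone, r was -0.35, -0.27, 0.03 and -0.06 in the same order. Leaving out Allograft replicate 4 alone changed r little, to -0.46, -0.55, 0.40 and -0.32. The relation of Loxl2 instead reached r = -0.90 without Allograft replicate 1 (adjusted p = 0.0417 from the exact permutation test over the 4 relations). That of Sema3c was -0.72 without Spon. Healing replicate 2 (adjusted exact permutation p = 0.224). That of Spon2 was 0.57 without Allograft replicate 5, 0.23 without Spon. Healing replicate 3 and 0.24 without Allograft replicate 1. Loxl2 lay on the same side of its group mean as Creb3l1 in 1 of the 9 libraries, Col11a1 and Sema3c in 3 each and Spon2 in 4.

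**Figure D4:**
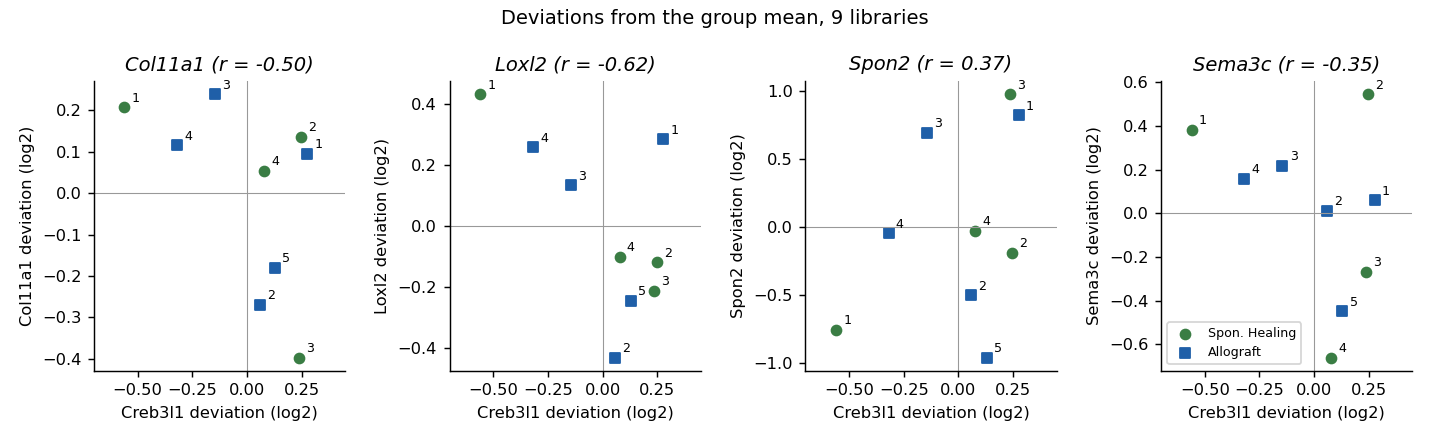
Deviation from the group mean of log2(normalized count + 1) for Col11a1, Loxl2, Spon2 and Sema3c (vertical axes) against that of Creb3l1 (horizontal axes) in the 9 libraries. Circles are Spon. Healing and squares Allograft, numbered by replicate. Spon. Healing replicate 1, at a Creb3l1 deviation of -0.56, is the leftmost point, and Pearson's r runs from -0.62 for Loxl2 to 0.37 for Spon2.

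The listed genes nearest to Creb3l1 were Tfg, Hspa5 and Dnajc3. Over the 9 libraries, which all share 1 size factor per library across genes, the highest r was found with Tfg, which organises the sites where vesicles leave the ER (0.95), with Hspa5, the ER chaperone BiP (0.85), and with Dnajc3, a co-chaperone of BiP (0.80). These were picked as the highest of 95 genes and carry no test. The median r of Creb3l1 with the 95 genes was 0.04 and ran from -0.73 to 0.95, and Loxl2 stood 92nd, Col11a1 86th, Sema3c 73rd and Spon2 27th in that order. The normalized counts of Tfg were 662, 1000, 918 and 813 in Spon. Healing replicates 1 to 4. They were 1321, 1237, 1059, 1040 and 1327 in Allograft replicates 1 to 5. Both Tfg and Creb3l1 had their lowest value of all libraries in Spon. Healing replicate 1, and Allograft replicates 3 and 4 were the lowest Allograft libraries for both. Without Spon. Healing replicate 1, r was 0.91 for Tfg and 0.63 for Hspa5.

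Most table genes of the lists for ER chaperones and for collagen export had a positive r with Creb3l1, of varied size. Of 25 chaperones and stress-response genes of the ER, 9 are in the table. All 9 had a higher mean in Allograft, as did 66.3% of the 98 listed genes. The table was selected on this contrast, so nothing is read from this count. Within groups 8 of the 9 correlated positively with Creb3l1 (median r 0.43), as did 53 of all 95 genes. This list was chosen with earlier results of these data known, and its genes share libraries and size factors. The 8 of 9 were therefore not tested against the 53 of 95, and no link is read from them. Pdia6, a disulfide isomerase, had 0.64, the stress-induced factor Manf 0.43, the chaperone Hsp90b1 0.21 and the translocon-associated Ssr1 -0.42. Ssr3 had 0.58, Chac1 0.41 and Dnajb9 0.27. Of 15 genes of collagen export from the ER, 3 are in the table. Beside Tfg these were the cargo receptor Lman1 with r = 0.69 and the vesicle coat protein Sec24d with r = 0.08. Sec24d averaged 938 ± 48.0 normalized counts in Spon. Healing (SD, n = 4), and its Allograft mean was 1356 ± 189 (SD, n = 5). With the matrix genes Lman1 and Sec24d had r of opposite sign, at -0.80 and 0.53 for Col11a1 and -0.70 and 0.58 for Loxl2.

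Col11a1 and Loxl2, by contrast, were near neighbours. Their deviations correlated with r = 0.77, each being the 3rd nearest of 95 genes to the other. This r stayed between 0.69 and 0.85 with any single library left out and under both other scalings. Over the 95 genes r ran from -0.88 to 0.81 for Col11a1 (median -0.09) and from -0.93 to 0.83 for Loxl2 (median -0.16). The most negative values were thus larger in size than 0.77. Loxl2 counts per 100 Col11a1 counts were 34.9, 25.01, 33.9 and 26.8 in Spon. Healing and 38.7, 30.3, 31.5, 37.4 and 32.4 in Allograft, and these ratios lay between 25.01 and 38.7 in all libraries. Sema3c correlated with r = 0.53 with Col11a1 and 0.46 with Loxl2. Spon2 had an r of -0.02 with Col11a1, 0.16 with Loxl2 and -0.01 with Sema3c. These values were not tested, and they are limited by the 4 to 12 Spon2 reads per Spon. Healing library.

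The other nearest genes were outside the matrix. Nearest to Col11a1 were Sfr1 (r = 0.81) and Fndc3b (0.79), which were 0.67 and 0.59 without Spon. Healing replicate 3. Loxl2 was nearest to the helicase Recql (0.83), whose mean was lower in Allograft. Spon2 was nearest to the clock repressor Nr1d1 (0.73), the actin capping subunit Capzb (0.55) and Recql (0.52), of which Capzb was 0.34 without Allograft replicate 1 and 0.35 without Allograft replicate 5, and Recql was 0.90 without Spon. Healing replicate 1. Sema3c was nearest to Sfr1 (0.74), Tmem51 (0.64) and Entpd7 (0.63), and the latter pair came to 0.34 and 0.24 without Spon. Healing replicate 4. Tmem51 came to 0.40 without Spon. Healing replicate 2. The deviations of the 5 genes correlated with that of the log2 size factor at -0.36 for Creb3l1, 0.35 for Col11a1, 0.16 for Loxl2, -0.29 for Spon2 and 0.53 for Sema3c, where 96 listed genes ran from -0.68 to 0.88, and the part of the size factor in the relations above was not tested.

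**Figure D5:**
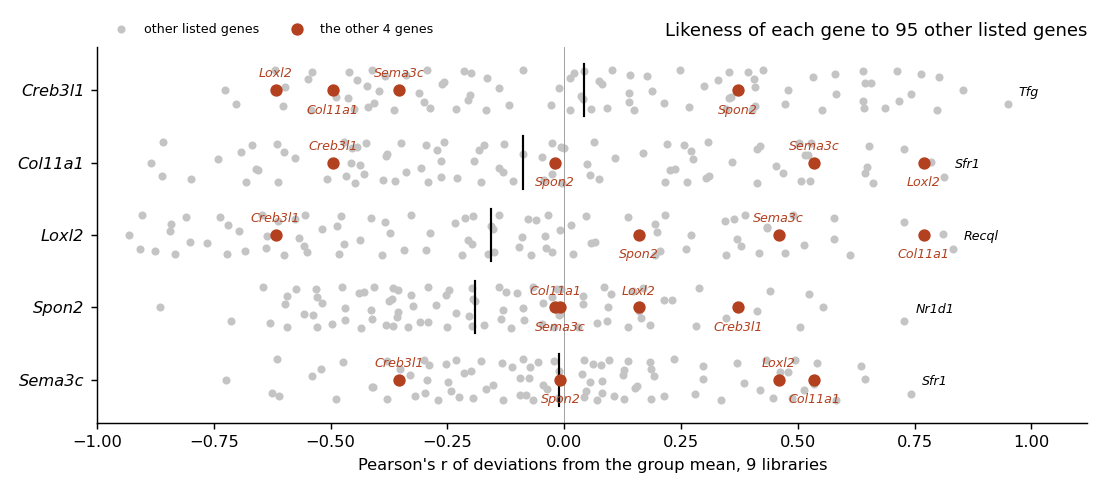
Pearson's r of the deviations from the group mean over 9 libraries (horizontal axis) between each of the 5 genes (rows) and 95 other listed genes. Red points are the other 4 genes, grey points the remaining listed genes spread vertically for visibility, black bars the row medians, and the nearest gene is named. Tfg is nearest to Creb3l1 (0.95), and Col11a1 and Loxl2 lie at 0.77 from each other and on the negative side for Creb3l1.

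The members were the only genes of their families in the table. Of 11 fibrillar collagens Col11a1 is listed, of 5 lysyl oxidases Loxl2, and of 8 spondins and thrombospondins Spon2. Sema3c is listed of 14 class 3 semaphorins and receptors, and Creb3l1 of 9 genes of the CREB3 family, ATF6 and their proteases. Each had a higher mean in Allograft, as did 66.3% of the 98 listed genes. None of 18 genes of collagen folding and modification is listed. Of 17 genes of procollagen processing and fibril assembly, Adamtsl5, a secreted ADAMTS-like protein, is listed, and its mean was lower in Allograft, at 86.6 ± 18.6 normalized counts (SD, n = 5) against 167 ± 49.8 (SD, n = 4) in Spon. Healing. A gene outside the table did not meet the authors' threshold or was not tested by them, and its level was not analysed here. The number of genes tested is unknown here, so no share over all genes stands beside these counts. As the table was selected on the group difference, nothing is read from them about the families.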

How the data were processed

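Maxilla RNA was sequenced as 9 CEL-Seq2 libraries from 2 ng of RNA each. The methods speak of 3 biological replicates, chosen for the highest RNA, while the table holds 4 and 5 libraries. The authors trimmed reads with cutadapt (quality 10, at least 28 nt), aligned them to GRCm38 (Ensembl release 99) with TopHat, and counted them with htseq-count in stranded mode, keeping mapping qualities from 10 upward. Use of molecular identifiers is not given in the sources used here. The deposited values are raw counts per gene and a normalized signal, which is the raw count divided by 1 DESeq2 size factor per library. All 98 deposited genes lie under the adjusted p of 0.1 that the authors set. The deposited fold changes, errors and p-values of the authors' comparison were otherwise not used.

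The 5 genes and all gene lists were chosen with earlier results of these data known. Group differences were described without a test. Deviations of log2(normalized count + 1) from group means were correlated in Python 3.11.15 with numpy 2.4.6, and two-sided exact permutation p-values were adjusted by Benjamini-Hochberg with a threshold of 0.05. The permutation test was run on simulated counts whose means all lay above those of Spon2 and Sema3c, so counts as low as theirs were not covered. TMM factors came from edgeR 4.0.16 in R 4.3.3. Named beside the members were the 3 nearest genes of each among genes with a mean of at least 10 raw counts, and each listed gene of the lists that a result turned on. One of these nearest genes is not reported here. Alternatives were other scalings, pseudocounts of 0.5 and 5, rank correlation, group medians, replicate blocks and leaving out each library. Chosen after seeing the data were adjustment over 95 genes, and the alternatives for the ratios to Creb3l1, for the spread and for the nearest genes. The p-values compare the observed pairing of deviations with exchanged orders of these libraries, and they do not measure a spread between mice. Library depth is unknown. Libraries of 1 group differed by more than counting noise (chi-square per degree of freedom 12.1 to 127 over 16 pairs), so none was merged with another, although this does not show that each came from a different mouse.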

Additional observations from a re-analysis of the deposited data

Results flagged for a closer look

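The Loxl2 level of Spon. Healing replicate 1, 2580 normalized counts, stood apart from the other 3 libraries of its group by a gap of 0.859 of the group's whole range, which is above Dixon's critical value for 4 samples. The Loxl2 count per 100 Creb3l1 counts of the same library, 316, stood apart by 0.881 of the range. The second value shares its Loxl2 count with the first. Of 18 such groups examined 2 were marked in this way, where chance marks about 1 in 20.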

How the results depend on the processing

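The higher mean in Allograft kept its direction for all 5 genes under every alternative run. Since the table was selected on this contrast, this describes the same values again and is no test of the difference. By median-of-ratios factors over the listed genes the log2 ratio was 0.25 for Creb3l1, 0.19 for Col11a1 and 0.38 for Loxl2, and by TMM over the listed genes it was 0.26 for Creb3l1 and 0.20 for Col11a1, with 6 instead of 52 listed genes higher in Allograft without overlap. With 1 library left out, the log2 ratio of means ran from 0.42 to 0.65 for Creb3l1, 0.39 to 0.57 for Col11a1, 0.63 to 0.86 for Loxl2, 2.13 to 2.85 for Spon2 and 0.91 to 1.29 for Sema3c. The count of listed genes without overlap then ran from 53 to 56 (higher) and from 21 to 27 (lower).

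With 1 library left out, r with Creb3l1 ran from -0.64 to -0.35 for Col11a1, -0.90 to -0.27 for Loxl2, 0.03 to 0.57 for Spon2 and -0.72 to -0.06 for Sema3c. Without the 2 farthest libraries the sign of r turned for Loxl2 (0.088) and Sema3c (0.097), and the cause was not tested. Over 17 alternatives the adjusted exact permutation p ran from 0.0417 to 0.965 for Loxl2, 0.180 to 0.965 for Col11a1, 0.224 to 0.965 for Sema3c and 0.269 to 0.965 for Spon2.

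With a replicate block by title number the mean log2 difference was 0.56 for Creb3l1, 0.55 for Col11a1, 0.75 for Loxl2, 2.48 for Spon2 and 1.25 for Sema3c, and by description number, over 3 pairs, 0.63, 0.27, 0.48, 2.06 and 0.96. The numbers are not shown to pair the mice, since deviations of same-numbered libraries correlated at -0.03 to 0.11 by title and -0.29 to 0.18 by description. Spon2 is limited by its depth in Spon. Healing, with 4 to 12 reads per library.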
